A study of Mus musculus with 9 samples.

Results

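The livers of mice given ZnPP before OA (ZnPP+OA) were set against livers from corn oil controls (Cont), to see what still differed from control when ZnPP preceded OA. The comparison used 6 of the 9 livers of the series, 3 ZnPP+OA and 3 Cont, which were chosen by their labels. The study asked how heme oxygenase-1 (HO-1) acts in cholestatic liver injury, in which bile builds up in the liver, and sequenced liver RNA of 3 groups of mice. All mice were male wild-type C57BL/6J mice of 6 to 8 weeks on a chow diet. ZnPP+OA mice were injected intraperitoneally with ZnPP (protoporphyrin IX zinc) at 20 mg/kg and, 2 h later, were gavaged with OA (oleanolic acid), over 4 days. OA mice were gavaged with OA, and Cont mice with the same volume of corn oil. Mice that received no ZnPP were injected with saline per the protocol. Sample labels give 295.5 mg/kg of OA and the treatment protocol 295.92 mg/kg, and mice were fasted for 12 h before collection. No library here came from mice given ZnPP without OA, so an effect of ZnPP of its own and an effect of ZnPP on the response to OA cannot be told apart. Each mouse gave 1 library, which carries its group's name and its replicate number (Cont 1, for example), and OA livers are given beside the others because they entered the same fit.

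HO-1, the product of Hmox1, splits heme into biliverdin, carbon monoxide and iron, and biliverdin reductase turns biliverdin into bilirubin. ZnPP is a heme-like compound that blocks HO-1 activity, and Nrf2 is a transcription factor that drives Hmox1. OA is a plant triterpenoid that causes cholestasis in mice at high doses. Hepatocytes make most plasma proteins, and in the acute phase response interleukin 6 and interleukin 1 act on them to raise serum amyloid A, haptoglobin and other secreted proteins. Male mouse hepatocytes also secrete major urinary proteins (Mups), small carriers of pheromones that depend on growth hormone, and use cytochrome P450 enzymes of the Cyp2c family to clear drugs and steroids.

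Libraries held 48293360 to 59833693 counts in ZnPP+OA, 59521589 to 85060187 in OA and 32639438 to 61915825 in Cont livers. Mitochondrially encoded genes took 62.8%, 68.7% and 59.0% of the counts in ZnPP+OA livers and 43.2%, 74.7% and 47.4% in Cont livers (exact permutation test, two-sided, p = 0.5, where 0.1 is the smallest p that 3 against 3 can give). Outside these genes and 7 pseudogenes on chromosome 1 that copy mitochondrial DNA, 9417867 to 12713311 counts were left in ZnPP+OA libraries and 4946748 to 23122403 in Cont libraries, with the fewest in Cont 2. Values below are counts scaled to library size (CPM) with factors given by the trimmed mean of M values (TMM), and are not corrected for gene length. The biological coefficient of variation was 0.669 in ZnPP+OA, 0.421 in OA and 0.870 in Cont livers, so Cont livers differed most among themselves. The labelled tissue was checked by hepatocyte markers: the 8 markers summed to 17610 to 23250 CPM in ZnPP+OA and 19310 to 63120 CPM in Cont livers, and Cont 1 held the highest value. Among ZnPP+OA and Cont livers, summed markers of pancreas and muscle were highest in Cont 2, at 2.75 and 10.01 CPM.

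No single gene passed the threshold between ZnPP+OA and Cont livers. The quasi-likelihood F test of edgeR on 18895 genes called 0 (0%), with a smallest adjusted p of 0.571, while 733 genes (3.88%) were higher and 809 (4.28%) lower at an unadjusted p under 0.05. Over all genes tested, the log2 fold change had a median of −0.02. All 3 ZnPP+OA livers lay above all 3 Cont livers for 1084 genes (5.74%) and below them for 854 (4.52%). DESeq2, run on the same genes, called 54 higher (0.307%) and 86 lower (0.488%) of 17617 genes with an adjusted p. Of these, 18 of the higher and 26 of the lower were protein-coding genes with an edgeR unadjusted p under 0.05. They also had no overlap between the livers and a mean of at least 5 CPM in 1 of the groups. With no filter on low counts, edgeR called 46 higher and 89 lower. In the same fit, OA livers differed from Cont livers at 454 genes that rose (2.4%) and 530 that fell (2.8%), and ZnPP+OA livers differed from OA livers at 303 higher (1.6%) and 239 lower (1.26%). These 3 comparisons share libraries, so their counts are not independent. Below, every edgeR adjusted p for ZnPP+OA against Cont is at least 0.571, and "higher" or "lower" describes values, not a passed test. Since every p measures the spread among these few mice, single genes are given with the value of each liver.

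Saa1, Saa2 and some other secreted acute phase genes were higher in ZnPP+OA livers. Of 27 acute phase genes tested, 10 were higher and 3 lower at an unadjusted p under 0.05, against 3.88% and 4.28% of all genes. In 9 the ZnPP+OA livers all lay above the Cont livers and in 0 all below, against 5.74% and 4.52% of all genes. The median log2 fold change of the list was 0.47 (OA against Cont, 0.78). Saa2, which encodes a serum amyloid A that is secreted with high-density lipoprotein, had 351, 676 and 621 CPM in ZnPP+OA livers, 38.8, 75.01 and 18.5 CPM in OA livers and 14.1, 41.4 and 109 CPM in Cont livers. The lowest ZnPP+OA liver stood above the highest of the other 6 livers. Its log2 fold change against Cont was 3.32 ± 0.69 (SE), with an unadjusted p of 0.000364 from edgeR and an adjusted p of 0.00031 from DESeq2. Against OA livers the log2 fold change was 3.64 (adjusted p = 0.0184 from edgeR), whereas OA livers did not pass the test against Cont (−0.32). Saa1, its neighbour, had 325, 645 and 639 CPM in ZnPP+OA, 63.0, 112 and 38.03 CPM in OA and 23.2, 51.1 and 172 CPM in Cont livers, a log2 fold change against Cont of 2.70 ± 0.66 (SE). Here too the ZnPP+OA livers lay above both other groups, and the adjusted p against OA was 0.0344 (edgeR). Reads of Saa1 and Saa2 can be hard to separate, and the sources used here do not say how reads that fit both were counted. Saa4, the constitutive member of the family, had 21.7, 25.8 and 23.2 CPM in ZnPP+OA and 101, 69.5 and 22.96 CPM in Cont livers, overlapping at Cont 3.

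The promoters of Saa1, Saa2 and Orm2 are shown because of their place in an order of protein-coding genes by fitted increase. That order held genes with an unadjusted p under 0.05 (edgeR), no overlap and a mean of at least 5 CPM in 1 of the groups. Saa2 stood first, and Saa1 and Orm2 were the other acute phase genes among the top 12. The sequences are the 250 bases before the start in RefSeq (GRCm38.p6), matched by symbol, and lie at chr7:46742981-46743230, minus strand (Saa1), chr7:46751583-46751832, plus strand (Saa2) and chr4:63362199-63362448, plus strand (Orm2). Capitals mark matches on either strand to GGG and CC with 5 bases of any kind between them, a loose form of the NF-kB site, to TTGCNNAA, a form of the C/EBP site, or to TATAAA, the TATA box.
Saa1: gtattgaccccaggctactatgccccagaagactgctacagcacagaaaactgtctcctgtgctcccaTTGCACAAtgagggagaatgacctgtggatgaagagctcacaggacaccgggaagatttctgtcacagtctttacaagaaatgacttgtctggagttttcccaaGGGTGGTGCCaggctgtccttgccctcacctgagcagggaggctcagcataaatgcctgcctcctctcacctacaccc
Saa2: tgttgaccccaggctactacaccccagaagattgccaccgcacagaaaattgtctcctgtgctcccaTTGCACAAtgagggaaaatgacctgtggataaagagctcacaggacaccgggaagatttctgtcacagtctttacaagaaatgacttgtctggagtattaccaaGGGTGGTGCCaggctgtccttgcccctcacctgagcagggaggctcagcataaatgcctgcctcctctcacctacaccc
Orm2: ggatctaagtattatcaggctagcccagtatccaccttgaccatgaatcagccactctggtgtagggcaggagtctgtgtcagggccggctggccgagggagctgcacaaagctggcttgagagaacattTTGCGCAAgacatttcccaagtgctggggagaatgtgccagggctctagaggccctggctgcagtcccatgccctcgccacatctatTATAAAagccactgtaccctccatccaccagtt
Saa1 and Saa2 each held 1 NF-kB and 1 C/EBP match, at nearly the same place, and the 2 promoters were identical at 238 of 251 aligned positions (94.8%). Orm2 held 1 C/EBP match and 1 TATA box. Of 32851 promoters of the same length, 45.8% held the NF-kB form, 9.56% the C/EBP form and 12.4% the TATA box, and a STAT form (TTCNNNGAA), held by 7.02%, was in none of the promoters shown here. A match describes letters, not binding.

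Orm2, Lcn2, Hp, Hpx and Hamp had smaller differences in the same direction, while 8 of the 27 acute phase genes had a negative log2 fold change. Orm2, which encodes orosomucoid 2, a plasma carrier protein, had 176, 365 and 257 CPM in ZnPP+OA livers, 255, 209 and 85.1 CPM in OA livers and 13.8, 60.7 and 74.9 CPM in Cont livers. ZnPP+OA and Cont livers did not overlap, and the log2 fold change was 2.41 ± 0.59 (SE; DESeq2 adjusted p = 0.00636). Lcn2, which encodes the iron-siderophore binding protein lipocalin 2, had 238, 299 and 235 CPM in ZnPP+OA, 752, 1563 and 1232 CPM in OA and 56.9, 149 and 45.8 CPM in Cont livers. ZnPP+OA livers thus lay between the other groups, above every Cont liver (log2 fold change 1.62 ± 0.47, SE) and below every OA liver (−2.20, edgeR adjusted p = 0.0301). Hp encodes haptoglobin, which binds free hemoglobin, and Hpx encodes hemopexin, which binds free heme. Hp had 5896, 5557 and 5370.0 CPM in ZnPP+OA, 9384, 9717 and 9998 CPM in OA and 2897, 2319.9 and 2915 CPM in Cont livers, so each group held its own range (log2 fold change against Cont 1.05 ± 0.46, SE; DESeq2 adjusted p = 0.00282). Hpx had 3716, 3512 and 4046 CPM in ZnPP+OA and 1411, 1688 and 2415 CPM in Cont livers, with OA livers at 3819.7, 3837 and 4167 CPM. Hamp, which encodes the iron hormone hepcidin, had 254, 302 and 227 CPM in ZnPP+OA and 106, 51.7 and 189 CPM in Cont livers, a log2 fold change of 1.18 ± 0.48 (SE), and OA livers spread over both ranges. The related gene Hamp2 went the other way, with a log2 fold change of −1.62 in the edgeR fit with no filter (adjusted p = 0.048). Saa4 was 1 of the 3 acute phase genes that were lower at an unadjusted p under 0.05, and the ZnPP+OA and Cont livers overlapped for each of those 3. Leaving out ZnPP+OA 2 or ZnPP+OA 3 left 5 acute phase genes higher at an unadjusted p under 0.05 in place of 10, and library totals alone left 4.

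**Figure D1:**
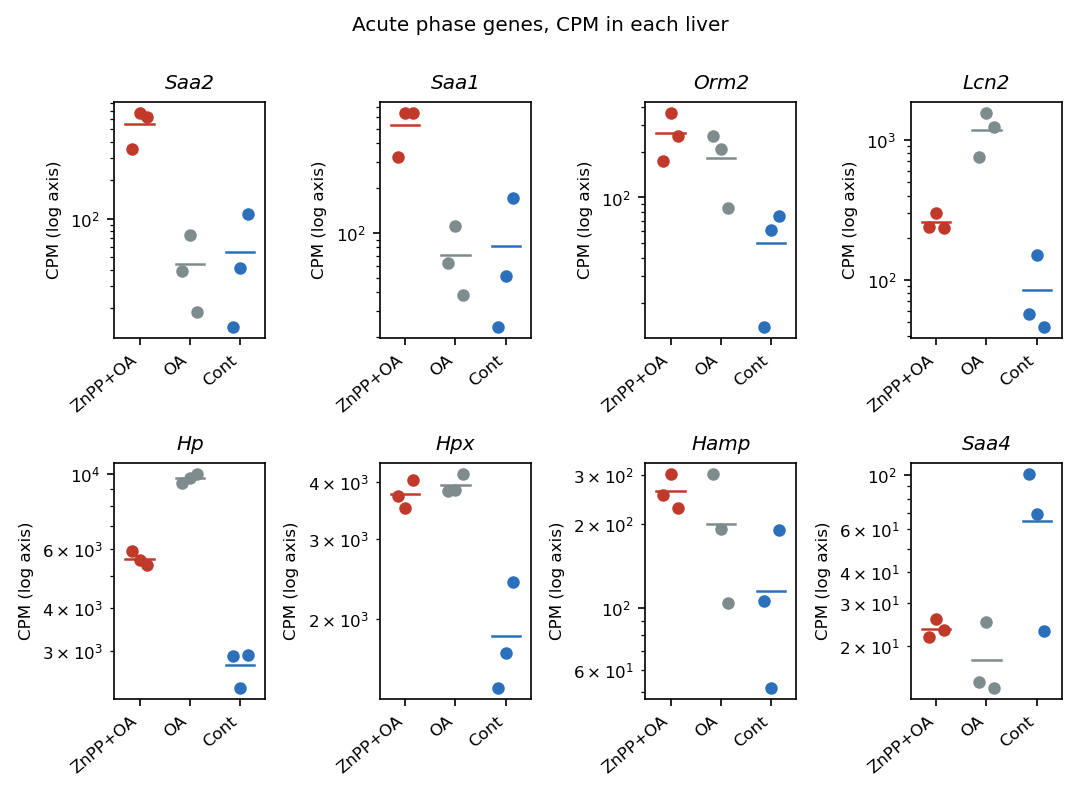
Level of 8 acute phase genes in each liver, in TMM-scaled CPM on a log axis, for ZnPP+OA, OA and Cont livers (points, 1 per mouse; lines, group mean). Saa2 and Saa1 were highest in the 3 ZnPP+OA livers, Lcn2 and Hp were highest in OA livers and lowest in Cont livers, and Saa4 was highest in Cont 1 and Cont 2.

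Major urinary protein genes had the lowest median of the lists tested. Of 19 Mup genes tested (22 listed), 17 were lower and 0 higher at an unadjusted p under 0.05, against 4.28% and 3.88% of all genes. In 13 the ZnPP+OA livers all lay below the Cont livers, against 4.52% of all genes. The median log2 fold change of the family was −1.98, beside −4.64 for OA against Cont, where 18 of the 19 fell, against 2.8% of all genes. In ZnPP+OA against OA livers 12 of the 19 were higher, against 1.6% of all genes (both edgeR, adjusted p under 0.05). Mup17 had 115, 450.3 and 269 CPM in ZnPP+OA livers, 90.6, 10.3 and 105 CPM in OA livers and 6101, 1658 and 1058 CPM in Cont livers. Every ZnPP+OA liver was below every Cont liver and above every OA liver, and the log2 fold change against Cont was −3.40 ± 0.88 (SE; unadjusted p = 0.00204 from edgeR, DESeq2 adjusted p = 0.0311). Mup18 had 43.8, 74.3 and 88.2 CPM in ZnPP+OA, 8.601, 4.88 and 13.2 CPM in OA and 913, 265 and 132 CPM in Cont livers (log2 fold change against Cont −2.67 ± 0.63, SE). Mup9 had 6.15, 6.88 and 7.33 CPM in ZnPP+OA, 1.63, 0.403 and 0.65 CPM in OA and 48.6, 23.4 and 25.4 CPM in Cont livers (−2.26 ± 0.48, SE). In both genes the 3 groups kept separate ranges, with ZnPP+OA in the middle. Mup16, Mup22 and Mup13 had log2 fold changes of −2.36, −2.17 and −2.09, also without overlap. Mup20, which encodes darcin, a male pheromone, stood apart with 2478, 2547 and 2307 CPM in ZnPP+OA, 919, 571 and 960.4 CPM in OA and 1409, 1076 and 1929.5 CPM in Cont livers, a log2 fold change of 0.73 ± 0.40 (SE), and its ZnPP+OA livers all lay above the Cont livers. Cont 1 held the highest level of Mup17, Mup18, Mup9, Mup16, Mup22 and Mup13, and also the highest sum of hepatocyte markers, whose part in this result was not tested. Without Cont 1, 10 of 20 Mup genes were lower at an unadjusted p under 0.05 and the median was −1.03, and with Cont 1 and Cont 2 both left out 6 of 20 were lower and the median was −0.90. Most Mup genes are near-identical copies on chromosome 4, so the same limit on shared reads applies to single members.

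The promoters of the Mup genes that differed most are shown to give their likeness: 250 bases before the start in RefSeq (GRCm38.p6), at chr4:61595833-61596082, minus strand (Mup17) and chr4:61674095-61674344, minus strand (Mup18). Capitals mark bases that differ between the pair in a global alignment, or that have no partner in it.
Mup17: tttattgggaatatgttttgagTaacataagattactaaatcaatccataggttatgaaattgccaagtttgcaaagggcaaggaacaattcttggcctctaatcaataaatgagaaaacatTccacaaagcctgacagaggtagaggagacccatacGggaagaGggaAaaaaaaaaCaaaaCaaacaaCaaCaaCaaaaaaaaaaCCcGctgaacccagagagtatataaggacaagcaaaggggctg
Mup18: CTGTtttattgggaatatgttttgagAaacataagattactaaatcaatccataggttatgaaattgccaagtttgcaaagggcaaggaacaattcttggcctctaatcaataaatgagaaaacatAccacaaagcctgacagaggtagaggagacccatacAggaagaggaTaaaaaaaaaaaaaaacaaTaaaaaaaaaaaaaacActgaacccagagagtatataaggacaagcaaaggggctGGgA
The pair was identical at 237 of 257 aligned positions (92.2%). Neither held the NF-kB, C/EBP, STAT or TATA box letters given above.

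**Figure D2:**
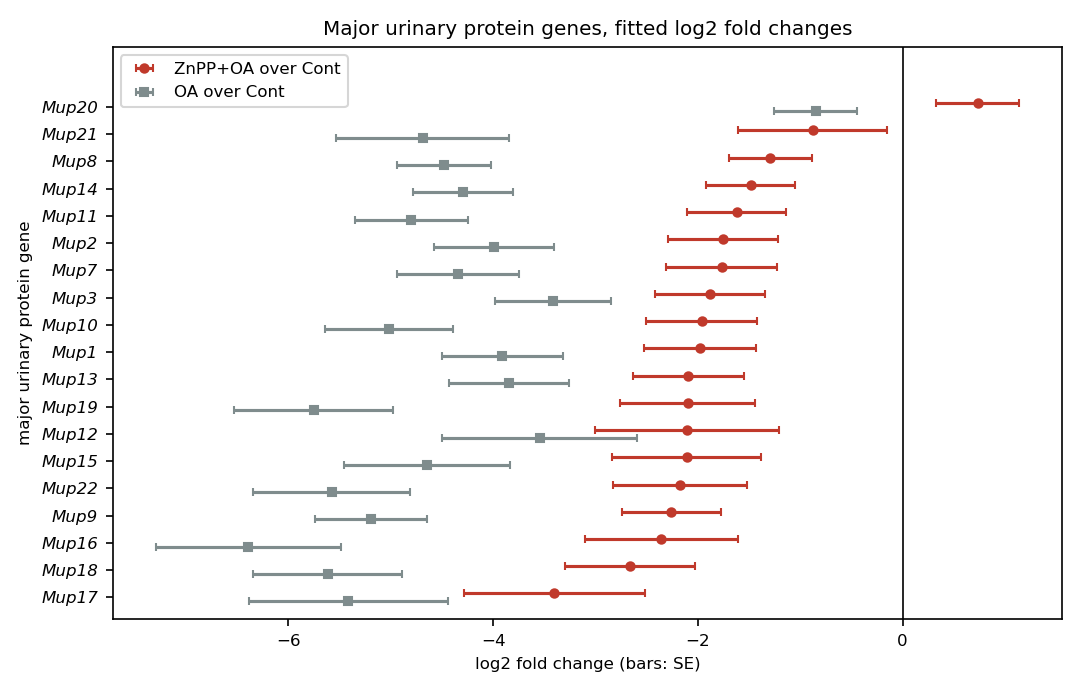
Fitted log2 fold change of the 19 tested major urinary protein genes for ZnPP+OA over Cont (circles) and OA over Cont (squares), with bars of 1 SE. The circles lie between −3.40 and 0.73, each square lies to the left of its circle, and Mup20 is the gene whose circle is right of 0.

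Some drug-clearing cytochrome P450 genes, Cyp2c37, Cyp2c50 and Cyp2c54 among them, were lower as well. Of 37 xenobiotic P450 genes tested, 8 were lower and 0 higher at an unadjusted p under 0.05, against 4.28% and 3.88% of all genes. In 6 the ZnPP+OA livers all lay below the Cont livers, against 4.52%. The median log2 fold change was −0.33, beside −1.93 for OA against Cont, where 16 fell and 0 rose, against 2.8% and 2.4% of all genes. Without Cont 1, 5 were lower and 1 higher, and with each ZnPP+OA or Cont liver left out in turn the median ran from −0.68 (without Cont 3) to −0.25 (without ZnPP+OA 1). Cyp2c37 had 5.13, 10.8 and 11.8 CPM in ZnPP+OA livers, 0.294, 0.438 and 0.362 CPM in OA livers and 56.3, 28.2 and 33.8 CPM in Cont livers. The groups did not overlap. Its log2 fold change against Cont was −2.09 ± 0.39 (SE; unadjusted p = 0.000126 from edgeR, DESeq2 adjusted p = 0.000757), and against OA livers it was 4.65 (edgeR adjusted p = 0.000948). Cyp2c50 had 10.6, 30.3 and 29.01 CPM in ZnPP+OA, 1.22, 1.41 and 0.808 CPM in OA and 169, 70.04 and 45.8 CPM in Cont livers. Cyp2c54 had 8.25, 23.2 and 9.597 CPM in ZnPP+OA, 0.414, 0.431 and 0.195 CPM in OA and 73.9, 38.01 and 35.6 CPM in Cont livers. For both, ZnPP+OA livers were again below every Cont liver and above every OA liver, with log2 fold changes against Cont of −2.03 ± 0.51 and −1.85 ± 0.46 (SE). Cyp2a4, a steroid hydroxylase higher in female mice, had 0 counts in all 3 ZnPP+OA livers and 122 counts in Cont livers, or 0.272, 0.366 and 1.53 CPM, with the highest level in Cont 3. Set against a floor of 3 counts over the ZnPP+OA group, its Cont mean of only 0.72 CPM gave a bound of 25.8-fold, which depends on that floor and leans on Cont 3. OA livers held 2.07, 2.35 and 1.64 CPM. The Cyp2c genes are close paralogs too, and how reads shared among P450 genes, Cyp2a4 included, were counted is not given in the sources used.

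The promoters of Cyp2c37 and Cyp2c50 are shown for the same reason, as the 250 bases before the start in RefSeq (GRCm38.p6), at chr19:39992174-39992423, plus strand (Cyp2c37) and chr19:40089429-40089678, plus strand (Cyp2c50), with capitals where the pair differs or has no partner in the alignment.
Cyp2c37: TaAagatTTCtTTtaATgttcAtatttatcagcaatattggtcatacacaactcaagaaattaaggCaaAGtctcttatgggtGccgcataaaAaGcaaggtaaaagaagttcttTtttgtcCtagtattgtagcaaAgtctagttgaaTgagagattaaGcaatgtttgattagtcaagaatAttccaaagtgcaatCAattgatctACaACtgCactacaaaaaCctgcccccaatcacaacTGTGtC
Cyp2c50: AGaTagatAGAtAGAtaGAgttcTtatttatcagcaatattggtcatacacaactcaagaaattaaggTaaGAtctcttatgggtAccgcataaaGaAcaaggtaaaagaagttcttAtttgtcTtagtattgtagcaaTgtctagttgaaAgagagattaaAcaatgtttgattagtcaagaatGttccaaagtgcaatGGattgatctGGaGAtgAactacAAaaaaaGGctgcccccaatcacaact
They were identical at 215 of 255 aligned positions (84.3%). Cyp2c37 held 1 match to the C/EBP form and Cyp2c50 held 1 match to the NF-kB form.

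Conjugating and hydrolysing enzymes had medians below 0, with few members that stood apart. Carboxylesterases (14 tested) had a median log2 fold change of −0.44 with 2 lower and 1 higher at an unadjusted p under 0.05, UDP-glucuronosyltransferases (16 tested) −0.50 with 4 lower and 1 higher, and sulfotransferases (10 tested) −0.74 with 3 lower and 0 higher, where 4.28% of all genes were lower and 3.88% higher. These values leaned on Cont 1, without which the medians were −0.22, −0.04 and −0.35, with 3, 1 and 1 genes lower and 1, 2 and 0 higher. Without ZnPP+OA 1 or ZnPP+OA 3, 1 UDP-glucuronosyltransferase was lower, and without ZnPP+OA 2 or ZnPP+OA 3, 1 sulfotransferase was. In OA against Cont their medians were −2.68, −2.42 and −1.20. Ces1d, which hydrolyses fat and ester drugs, had 40.8, 111 and 63.5 CPM in ZnPP+OA, 15.3, 13.3 and 16.7 CPM in OA and 280.0, 139.8 and 149.7 CPM in Cont livers (log2 fold change against Cont −1.40 ± 0.40, SE). Ces2a had 31.6, 39.5 and 38.9 CPM in ZnPP+OA and 138, 71.2 and 47.3 CPM in Cont livers, and Ugt2b1, which conjugates steroids and drugs, had 22.3, 23.97 and 24.2 CPM in ZnPP+OA and 116, 62.7 and 26.7 CPM in Cont livers. All 3 genes had ZnPP+OA livers below every Cont liver, and for Ces2a and Ugt2b1 the nearest Cont liver was Cont 3. Sult2a8, a bile acid sulfotransferase of mouse liver, had 30.1, 79.7 and 65.05 CPM in ZnPP+OA and 328, 121 and 55.01 CPM in Cont livers, which overlapped. The flavin monooxygenase gene Fmo2 had 9.69, 11.3 and 12.5 CPM in ZnPP+OA and 27.6, 28.9 and 19.4 CPM in Cont livers with no overlap (−1.18 ± 0.29, SE; DESeq2 adjusted p = 0.0219).

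Dio1 was lower in ZnPP+OA livers, and genes of fat synthesis differed in both directions. Dio1 encodes type 1 deiodinase, which converts thyroxine to the active hormone, and had 4.14, 8.12 and 3.06 CPM in ZnPP+OA livers, 1.11, 2.43 and 1.997 CPM in OA livers and 69.9, 32.8 and 10.2 CPM in Cont livers. All ZnPP+OA livers were below all Cont livers, although Cont livers themselves ranged widely (log2 fold change −2.88 ± 0.62, SE; unadjusted p = 0.000443 from edgeR, DESeq2 adjusted p = 0.00179). Thrsp, a nuclear protein tied to lipogenesis, had 2.104, 14.7 and 5.61 CPM in ZnPP+OA and 28.7, 101 and 10.5 CPM in Cont livers, which overlapped at 1 liver each (−2.65 ± 0.77, SE). Of 24 fatty acid synthesis genes, 2 were higher and 3 lower at an unadjusted p under 0.05, with a median of −0.24. Of all genes, 3.88% were higher and 4.28% lower. Lpin1, a phosphatidate phosphatase, had 12.2, 19.5 and 12.99 CPM in ZnPP+OA and 30.6, 31.8 and 29.5 CPM in Cont livers, with no overlap. Acaca, which encodes acetyl-CoA carboxylase, went the other way with 22.1, 46.4 and 29.1 CPM in ZnPP+OA and 10.4, 19.3 and 18.1 CPM in Cont livers, also with no overlap (1.03 ± 0.36, SE).

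**Figure D3:**
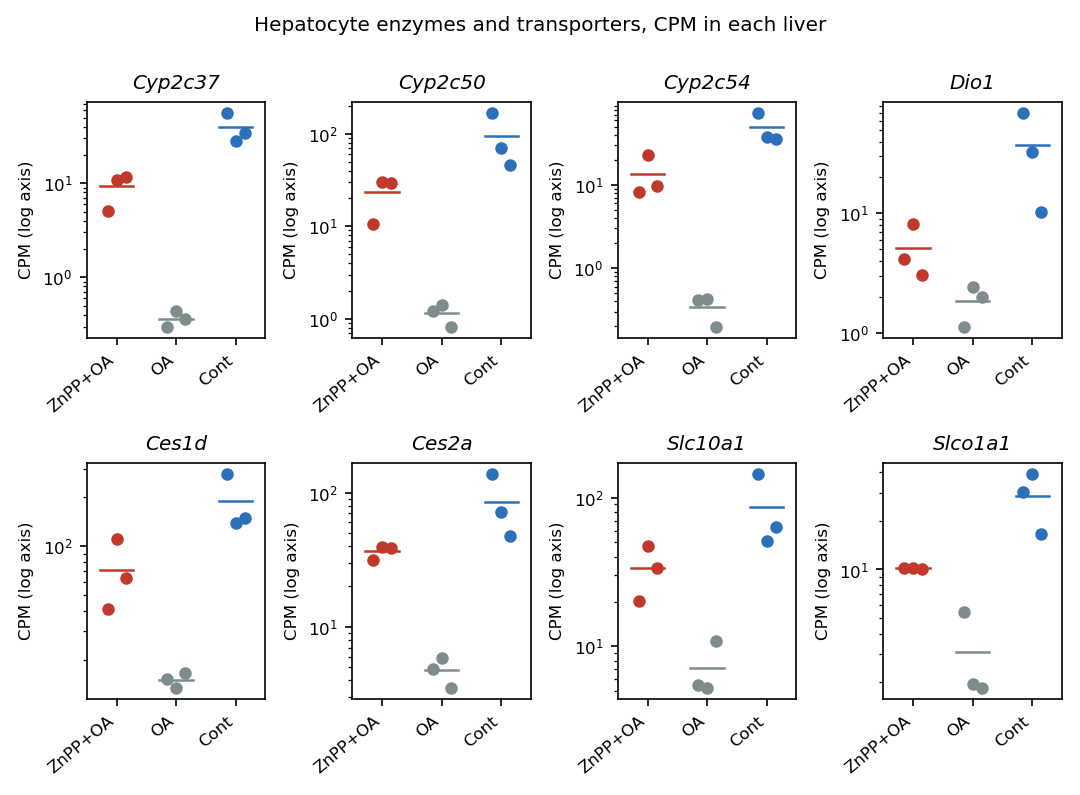
Level of 8 hepatocyte enzyme and transporter genes in each liver, in TMM-scaled CPM on a log axis, for ZnPP+OA, OA and Cont livers (points, 1 per mouse; lines, group mean). In all 8 the ZnPP+OA livers lie below the Cont livers and above the OA livers.

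Lists of bile acid handling genes had medians between −0.31 and 0.42 for ZnPP+OA against Cont. Of 19 bile acid synthesis genes, 1 was higher and 2 lower at an unadjusted p under 0.05, against 3.88% and 4.28% of all genes. Their median was −0.12, beside −0.84 for OA against Cont, where 7 fell, against 2.8% of all genes. Without ZnPP+OA 2 the median for ZnPP+OA against Cont was −0.57. Of 8 uptake genes, 2 were lower (median −0.31, beside −2.06). Of 9 genes of export into bile, 0 were higher and 0 lower at an unadjusted p under 0.05 (median 0.37, beside 0.11). Of 7 genes of export into blood, 1 was higher and 0 lower (median 0.42, beside 1.37). The largest log2 fold change among these 7 was 3.43, and ZnPP+OA and Cont livers overlapped for each of them. Slc10a1, which encodes the sodium-dependent bile acid transporter NTCP, had 20.2, 47.2 and 33.6 CPM in ZnPP+OA, 5.49, 5.22 and 10.8 CPM in OA and 145, 51.1 and 63.1 CPM in Cont livers (log2 fold change against Cont −1.36 ± 0.46, SE). Slco1a1, an organic anion transporter of the sinusoidal membrane, had 10.3, 10.3 and 10.1 CPM in ZnPP+OA, 5.45, 1.96 and 1.83 CPM in OA and 30.3, 39.3 and 16.6 CPM in Cont livers. Both had ZnPP+OA livers below every Cont liver. Abcb11, which encodes the bile salt export pump, had 126, 129 and 116 CPM in ZnPP+OA, 46.9, 32.9 and 44.5 CPM in OA and 95.4, 110.5 and 81.8 CPM in Cont livers. Its ZnPP+OA livers lay just above the Cont livers (0.37 ± 0.28, SE; 95% confidence interval −0.23 to 0.97) and well above the OA livers (edgeR adjusted p = 0.0147). Abcc2 and Abcc3, which export conjugated bilirubin into bile and into blood, overlapped between the groups, with log2 fold changes of 0.42 ± 0.42 and 0.42 ± 0.54 (SE), and so did Abcc4 (−0.12 ± 0.65, SE; 0.544, 0.706 and 1.97 CPM in ZnPP+OA and 1.75, 1.037 and 0.713 CPM in Cont livers). Baat, which joins bile acids to taurine, had 109.8, 111 and 93.8 CPM in ZnPP+OA and 47.8, 39.3 and 85.7 CPM in Cont livers (0.87 ± 0.39, SE, no overlap). Cyp39a1, an oxysterol hydroxylase, was the bile acid gene furthest below Cont, with 2.25, 0.847 and 1.504 CPM in ZnPP+OA livers against 9.53, 6.28 and 3.41 CPM in Cont livers (−2.05 ± 0.59, SE). OA livers held 2.398, 7.45 and 9.61 CPM of Cyp39a1, above every ZnPP+OA liver and overlapping Cont.

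Hmox1 and Blvra, which act in turn on heme and biliverdin, had higher mean levels in ZnPP+OA than in Cont livers, and Ugt1a1 had a lower one. Hmox1, the gene of the enzyme ZnPP blocks, had 42.6, 30.5 and 46.5 CPM in ZnPP+OA, 39.97, 46.4 and 52.8 CPM in OA and 30.6, 18.6 and 13.5 CPM in Cont livers, with an overlap between ZnPP+OA 2 and Cont 1. Its log2 fold change against Cont was 0.93 ± 0.34 (SE; 95% confidence interval 0.21 to 1.66; unadjusted p = 0.0157 from edgeR), and OA against Cont gave 1.15. mRNA does not report enzyme activity. Blvra, which encodes biliverdin reductase A, had 5.08, 4.73 and 7.902 CPM in ZnPP+OA and 2.93, 2.26 and 4.61 CPM in Cont livers, with no overlap (0.84 ± 0.38, SE). Ugt1a1, the enzyme that conjugates bilirubin, had 25.8, 101 and 59.9 CPM in ZnPP+OA and 247, 101 and 125 CPM in Cont livers (−1.34 ± 0.65, SE). The highest ZnPP+OA liver and the lowest Cont liver of Ugt1a1 were nearly equal. Of 12 heme degradation and bilirubin handling genes, 4 were higher and 1 lower (Slco1a1) at an unadjusted p under 0.05. Of all genes, 3.88% were higher and 4.28% lower. The 4 were Hmox1, Blvra and the plasma scavengers Hp and Hpx. Hp and Hpx are also among the acute phase genes given above. The median of the 12 was 0.42. Without Cont 1 that median was 0.10 and 2 were higher, without Cont 3 it was 0.71, and without ZnPP+OA 3 none was higher. Of 13 heme synthesis genes, 0 were higher and 2 lower (median −0.45, which was near 0 without Cont 1). Alad, which encodes porphobilinogen synthase, had 74.4, 88.6 and 71.6 CPM in ZnPP+OA and 121, 126 and 116 CPM in Cont livers, with no overlap.

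Most Nrf2 targets had values close to those of Cont livers. Nfe2l2, the gene of Nrf2, had 38.1, 47.4 and 29.04 CPM in ZnPP+OA, 50.4, 65.4 and 50.7 CPM in OA and 15.6, 19.9 and 30.5 CPM in Cont livers (log2 fold change against Cont 0.79 ± 0.32, SE, with overlap). Keap1, its inhibitor, gave 0.31 ± 0.28 (SE). Gclc, an Nrf2 target that encodes the catalytic subunit of glutamate-cysteine ligase in glutathione synthesis, had 64.97, 39.05 and 46.6 CPM in ZnPP+OA, 439.8, 256 and 300.5 CPM in OA and 54.3, 69.7 and 38.6 CPM in Cont livers. ZnPP+OA and Cont livers overlapped for Gclc (−0.11 ± 0.35, SE), while OA livers lay far above both (edgeR adjusted p = 0.00216 against Cont). Nqo1 gave −0.24 ± 0.71 and Sod2, the mitochondrial superoxide dismutase, −0.39 ± 0.40 (SE), both with overlap, and both had their highest ZnPP+OA or Cont value in Cont 1. Of 24 Nrf2 targets, 2 were higher and 1 lower at an unadjusted p under 0.05, against 3.88% and 4.28% of all genes. Their median was 0.18, beside 1.15 for OA against Cont, where 7 rose, against 2.4% of all genes. Of 19 antioxidant enzymes 0 were higher and 0 lower (median −0.09). Of 23 glutathione S-transferases, which conjugate electrophiles to glutathione, 4 were higher and 1 lower (median 0.21). Gsta2 had 21.1, 9.71 and 13.2 CPM in ZnPP+OA and 5.897, 4.45 and 7.36 CPM in Cont livers, with no overlap (1.31 ± 0.35, SE). Gstm3 had 107, 15.5 and 35.1 CPM in ZnPP+OA and 5.78, 13.5 and 20.3 CPM in Cont livers, and Gsta1 had 78.8, 5.19 and 26.2 CPM in ZnPP+OA and 6.62, 12.3 and 10.8 CPM in Cont livers. Both were highest in ZnPP+OA 1 and overlapped at ZnPP+OA 2, and without ZnPP+OA 1 only 1 transferase gene was higher at an unadjusted p under 0.05.

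Slc30a4 and Il1r1 were lower in ZnPP+OA livers than in both OA and Cont livers. Slc30a4, which encodes the zinc transporter ZnT4, had 0.709, 0.494 and 0.383 CPM in ZnPP+OA, 4.23, 8.36 and 10.6 CPM in OA and 1.603, 4.82 and 3.21 CPM in Cont livers. Every ZnPP+OA liver was below every Cont and OA liver (log2 fold change −2.58 ± 0.57 against Cont, SE, DESeq2 adjusted p = 0.00425; −3.86 against OA, edgeR adjusted p = 0.00734). Il1r1 encodes the signalling receptor of interleukin 1 and had 21.2, 17.6 and 13.1 CPM in ZnPP+OA, 39.9, 50.9 and 45.2 CPM in OA and 23.04, 47.5 and 51.99 CPM in Cont livers (−1.24 ± 0.34 against Cont, SE, DESeq2 adjusted p = 0.0415; edgeR adjusted p against OA = 0.0488). Its lowest Cont liver was only slightly above its highest ZnPP+OA liver. Il1r2, the decoy receptor, had 0.118, 0 and 0 CPM in ZnPP+OA, 2.803, 12.04 and 3.24 CPM in OA and 0.181, 1.037 and 0.2 CPM in Cont livers, so that 2 ZnPP+OA livers were at 0. Il1rap, the shared co-receptor, had 13.3, 19.8 and 18.3 CPM in ZnPP+OA and 54.5, 25.4 and 21.5 CPM in Cont livers, with no overlap, and OA livers lower still at 5.17, 7.51 and 7.76 CPM. Il1rn, the secreted antagonist of the receptor, had 3.45, 3.85 and 6.62 CPM in ZnPP+OA and 0.484, 2.44 and 1.87 CPM in Cont livers, above every Cont liver (1.56 ± 0.56, SE). Of 22 genes of interleukin 1, TNF and the inflammasome, 2 were higher and 6 lower at an unadjusted p under 0.05, against 3.88% and 4.28% of all genes (median −0.24, beside 0.72 for OA against Cont). With 1 liver left out, 0 (without ZnPP+OA 3) to 2 were higher, 2 (without ZnPP+OA 2) to 6 were lower, and the median ran from −0.53 (without ZnPP+OA 3) to 0.05 (without Cont 3).

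Among 24 immediate early genes, 0 were higher and 3 lower at an unadjusted p under 0.05, against 3.88% and 4.28% of all genes. The median was 0.08, beside 1.37 for OA against Cont, where 8 rose, against 2.4% of all genes. Klf10, a TGF-beta-inducible repressor, had 6.15, 5.97 and 7.85 CPM in ZnPP+OA, 9.24, 9.53 and 11.1 CPM in OA and 16.1, 17.4 and 16.03 CPM in Cont livers. The 3 groups did not overlap, and the spread within each was small beside the gap (log2 fold change against Cont −1.31 ± 0.29, SE; DESeq2 adjusted p = 0.00287). Fosl2, an AP-1 subunit, had 4.47, 3.07 and 2.95 CPM in ZnPP+OA, 11.3, 14.2 and 10.8 CPM in OA and 8.26, 6.53 and 6.59 CPM in Cont livers, again in 3 separate ranges but with OA livers highest (−1.02 ± 0.33 against Cont, SE; edgeR adjusted p against OA = 0.0168). Fosb, another AP-1 subunit, had 0.0709, 0 and 0 CPM in ZnPP+OA, 1.65, 2.38 and 3.07 CPM in OA and 0.302, 0.976 and 0.114 CPM in Cont livers. Fabp1, the main fatty acid binding protein of hepatocytes, had 206, 173 and 198 CPM in ZnPP+OA, 261, 317 and 667 CPM in OA and 401, 429 and 323 CPM in Cont livers, and its ZnPP+OA livers were below every Cont liver (−1.001 ± 0.38, SE).

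Of 12 genes of activin signalling, 6 were lower and 0 higher at an unadjusted p under 0.05, against 4.28% and 3.88% of all genes. In 3 of the 12 the ZnPP+OA livers all lay below the Cont livers, against 4.52% of all genes. The median was −1.04, beside −0.11 for OA against Cont. Inhbc, which encodes a liver activin subunit, had 12.2, 14.9 and 9.84 CPM in ZnPP+OA, 9.67, 7.41 and 14.2 CPM in OA and 44.4, 20.9 and 17.2 CPM in Cont livers, and Acvr2b, a type 2 activin receptor, had 1.77, 3.07 and 1.12 CPM in ZnPP+OA and 10.98, 10.1 and 3.12 CPM in Cont livers. Inhbe, another liver subunit, had 17.5, 21.1 and 20.1 CPM in ZnPP+OA and 61.3, 18.6 and 46.2 CPM in Cont livers, and Smad7, the inhibitory Smad, had 1.87, 1.13 and 1.15 CPM in ZnPP+OA and 6.99, 4.76 and 1.77 CPM in Cont livers. For all 4 genes the highest Cont value was that of Cont 1, and Inhbc and Acvr2b had no overlap. The median without Cont 2 was −0.35 with 4 lower, without Cont 1 it was −0.68 with 3 lower, and with both left out it was −0.37 with 1 lower.

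**Figure D4:**
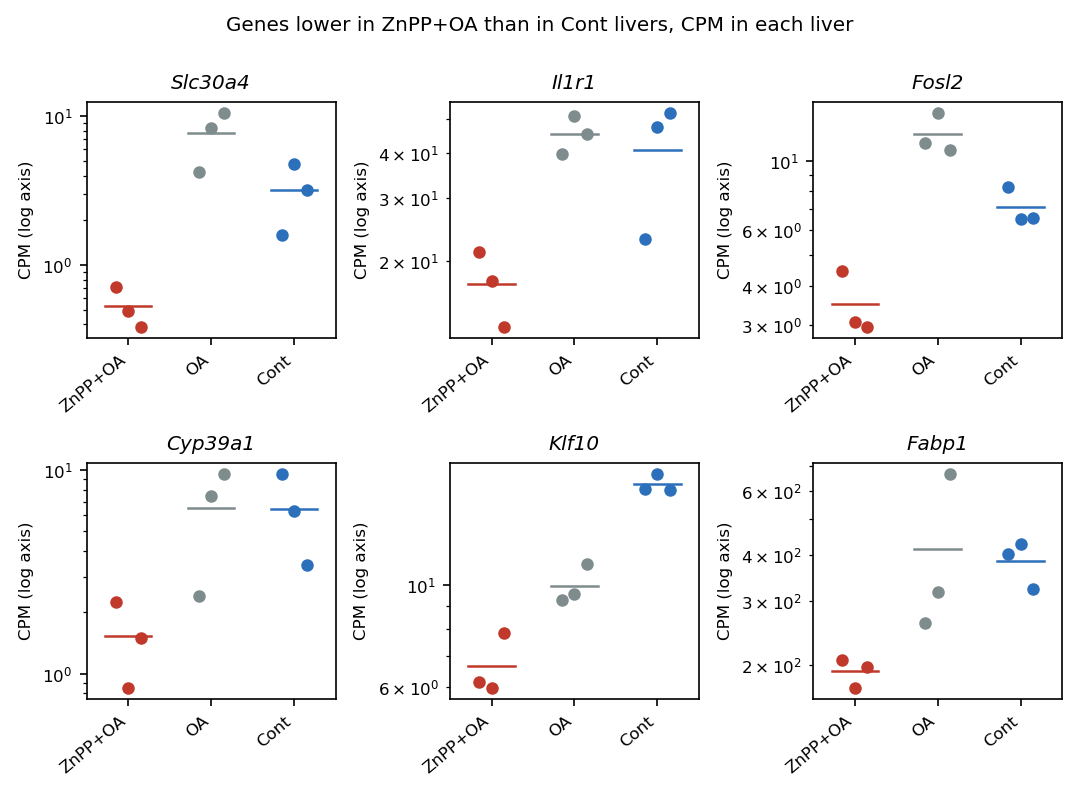
Level of 6 genes in each liver, in TMM-scaled CPM on a log axis, for ZnPP+OA, OA and Cont livers (points, 1 per mouse; lines, group mean). In all 6 the ZnPP+OA livers lie below the Cont livers, and the OA livers of Slc30a4 and Fosl2 lie above most or all Cont livers.

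The remaining genes with the largest differences had mixed roles. Rasal1, a Ras GTPase-activating protein, had 19.9, 9.07 and 9.41 CPM in ZnPP+OA, 9.401, 10.2 and 5.39 CPM in OA and 0.272, 1.16 and 2.62 CPM in Cont livers (log2 fold change against Cont 3.20 ± 0.66, SE; DESeq2 adjusted p = 0.000957). Scamp5, a secretory carrier membrane protein, had 33.2, 26.4 and 21.4 CPM in ZnPP+OA, 27.1, 27.9 and 29.2 CPM in OA and 4.57, 6.47 and 12.5 CPM in Cont livers (1.78 ± 0.37, SE; DESeq2 adjusted p = 0.00325). In both, OA livers overlapped ZnPP+OA livers and lay above every Cont liver. Entpd2, an ectonucleotidase, had 6.15, 4.695 and 8.72 CPM in ZnPP+OA and 0.756, 0.732 and 2.58 CPM in Cont livers, and Mief2, a mitochondrial fission adaptor, had 16.5, 23.7 and 18.5 CPM in ZnPP+OA and 6.502, 5.31 and 1.37 CPM in Cont livers. Slc26a6, an anion exchanger, had 12.01, 10.1 and 10.7 CPM in ZnPP+OA and 0.363, 3.29 and 3.89 CPM in Cont livers. In these 3 the lowest ZnPP+OA liver was above the highest Cont liver, as the rule that named them required. Their log2 fold changes were 2.22, 2.17 and 2.12. Tsr2, a factor in ribosome assembly, Prob1 and Ahnak2 had log2 fold changes of 2.09, 2.04 and 2.03, also with no overlap. Lmntd2 had 11.4, 16.4 and 10.7 CPM in ZnPP+OA, 7.31, 3.35 and 2.63 CPM in OA and 0.635, 4.15 and 5.51 CPM in Cont livers, so its ZnPP+OA livers were above both other groups. Mid1, a microtubule-associated ubiquitin ligase, had 56.2, 4.02 and 3.25 CPM in ZnPP+OA and 2.06, 2.81 and 2.31 CPM in Cont livers, so its log2 fold change of 3.15 ± 0.87 (SE) rests on ZnPP+OA 1, without which it was 0.64 relative to all genes.

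On the lower side, Pdp2, a phosphatase that activates pyruvate dehydrogenase, had 2.32, 2.65 and 2.95 CPM in ZnPP+OA, 2.38, 3.25 and 3.55 CPM in OA and 10.1, 8.298 and 7.59 CPM in Cont livers. ZnPP+OA and Cont livers did not overlap, as the rule for naming such genes required (log2 fold change −1.71 ± 0.38, SE, DESeq2 adjusted p = 0.0031). Taf9, a subunit of the general transcription factor TFIID, had 0.757, 0 and 0 CPM in ZnPP+OA and 11.9, 2.32 and 0.813 CPM in Cont livers, and the vomeronasal receptor gene Vmn2r76 had 0.757, 1.27 and 0 CPM in ZnPP+OA and 8.29, 9.09 and 2.18 CPM in Cont livers. The histone gene H2ac18 had 0, 4.91 and 1.75 CPM in ZnPP+OA and 7.198, 8.36 and 14.3 CPM in Cont livers, and Celf4, an RNA-binding protein of neurons, had 1.77, 1.41 and 0.574 CPM in ZnPP+OA and 11.3, 2.502 and 2.895 CPM in Cont livers. All 4 stayed under 15 CPM in every ZnPP+OA and Cont liver, and Cont 1 was the only one of these livers above 3 CPM for Taf9 and Celf4.

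Among markers of other cell types, the summed level of red cell markers was lower and that of bile duct cell markers higher in every ZnPP+OA liver than in every Cont liver. In bulk liver, fewer cells of a type and less RNA per cell cannot be told apart. Erythrocyte markers summed to 177 to 182 CPM in ZnPP+OA, 157 to 241 CPM in OA and 238 to 896 CPM in Cont livers, with Cont 2 the highest. Of 6 tested, 5 were lower at an unadjusted p under 0.05, against 4.28% of all genes. In 4 the ZnPP+OA livers all lay below the Cont livers, against 4.52% of all genes, and the median was −1.35. The globin gene Hbb-bs had 37.9, 39.1 and 36.3 CPM in ZnPP+OA and 60.5, 163 and 62.7 CPM in Cont livers, and Alas2, the heme synthesis enzyme of red cells, had 7.12, 9.46 and 8.12 CPM in ZnPP+OA and 24.7, 19.8 and 9.51 CPM in Cont livers. Without Cont 2, 1 of the 6 was lower at an unadjusted p under 0.05 and the median was −0.55. Cholangiocyte markers summed to 161 to 198 CPM in ZnPP+OA, 213 to 325 CPM in OA and 63.5 to 129 CPM in Cont livers. Of 11, 2 were higher and 0 lower at an unadjusted p under 0.05, against 3.88% and 4.28% of all genes, and 4 had ZnPP+OA livers all above Cont livers, against 5.74% (median 0.59). Without Cont 1 the median was 0.22 and 1 was higher. Spp1, which encodes osteopontin, had 146, 110.1 and 106 CPM in ZnPP+OA, 139, 254 and 269 CPM in OA and 32.96, 49.4 and 84.5 CPM in Cont livers, and Krt7, a bile duct keratin, had 7.35, 10.4 and 13.5 CPM in ZnPP+OA and 6.02, 4.82 and 1.71 CPM in Cont livers. Markers of intestine and gallbladder summed to 279.5 to 298.5 CPM in ZnPP+OA and lay below that range in every Cont liver, where the lowest was 117 CPM. The higher sum was not shared by most members: 2 had a positive and 4 a negative log2 fold change. Their median was −0.22, with 0 of 7 at an unadjusted p under 0.05. The part of these markers in the results above was not tested.

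Kupffer cell markers summed to 306 to 456 CPM in ZnPP+OA, 863 to 1209 CPM in OA and 194 to 406 CPM in Cont livers. At an unadjusted p under 0.05, 1 of 12 was higher, where 3.88% of all genes were higher and 4.28% lower. Monocyte and macrophage markers summed to 100 to 154 CPM in ZnPP+OA, 296 to 558 CPM in OA and 67.5 to 128 CPM in Cont livers, and 1 of 14 was higher. That gene was Cybb, the oxidase subunit gp91phox, with 6.74, 7.48 and 11.5 CPM in ZnPP+OA and 1.603, 4.64 and 5.81 CPM in Cont livers. Neutrophil markers summed to 12.96 to 16.9 CPM in ZnPP+OA and 4.48 to 19.5 CPM in Cont livers, which overlapped. The lymphocyte list summed to 13.5 to 19.6 CPM in ZnPP+OA, 2.84 to 4.17 CPM in OA and 24.95 to 43.9 CPM in Cont livers, which kept 3 separate ranges, with a median log2 fold change of −1.07 over 16 genes. Endothelial markers had a median of −0.47 (1 of 10 lower) and stellate cell markers −0.26 (1 of 13 lower, Tagln, with 6.1, 7.096 and 5.305 CPM in ZnPP+OA and 15.8, 15.99 and 9.49 CPM in Cont livers).

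Several groups that set OA livers apart had smaller median differences from Cont in ZnPP+OA livers. The 13 mitochondrially encoded protein genes had a median log2 fold change of −0.20 for ZnPP+OA against Cont, with 0 at an unadjusted p under 0.05. For OA against Cont it was −3.27, where 3 fell, against 2.8% of all genes. Their summed level in every ZnPP+OA liver lay above Cont 1 and Cont 3 and below Cont 2. The 2 mitochondrial rRNA genes had medians of −1.57 (ZnPP+OA) and −5.16 (OA) against Cont. Without Cont 2 the median for ZnPP+OA against Cont was 1.36, and 3 of the 13 were higher at an unadjusted p under 0.05. Urea cycle and amino acid genes had a median of −0.14 for ZnPP+OA against Cont and −1.26 for OA against Cont, where 10 of 27 fell, against 2.8% of all genes. Complement and coagulation genes had −0.25 and −1.08, and cytoskeleton genes 0.19 and 1.31, with 13 of 27 risen in OA livers, against 2.4% of all genes. With each ZnPP+OA or Cont liver left out in turn, the medians for ZnPP+OA against Cont ran from −0.42 (without Cont 2) to 0.29 (without Cont 1) for urea cycle and amino acid genes, from −0.38 (without ZnPP+OA 2) to −0.06 (without Cont 1) for complement and coagulation genes and from 0.02 (without ZnPP+OA 1) to 0.55 (without Cont 2) for cytoskeleton genes. Tubb6, a beta-tubulin, was the cytoskeleton gene with the smallest p, with 9.98, 7.45 and 13.6 CPM in ZnPP+OA, 14.8, 18.2 and 25.9 CPM in OA and 4.78, 3.84 and 3.29 CPM in Cont livers. Of 20 chemokine genes, 5 were higher and 1 lower at an unadjusted p under 0.05 for ZnPP+OA against Cont (median 0.26, or −0.07 with 2 genes that have a group at 0 set to their bound), where 3.88% of all genes were higher and 4.28% lower. The count of higher chemokine genes was 0 without Cont 3, 1 without ZnPP+OA 3, 2 without ZnPP+OA 1 and 3 without Cont 1 or Cont 2, and it was 1 with the 6 libraries alone, where the median was −0.08, and 1 with the replicate number as a block. Ccl2 had 3.64, 1.38 and 4.32 CPM in ZnPP+OA, 18.2, 14.04 and 9.08 CPM in OA and 0.635, 2.14 and 0.628 CPM in Cont livers, and ZnPP+OA and Cont livers overlapped.

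**Figure D5:**
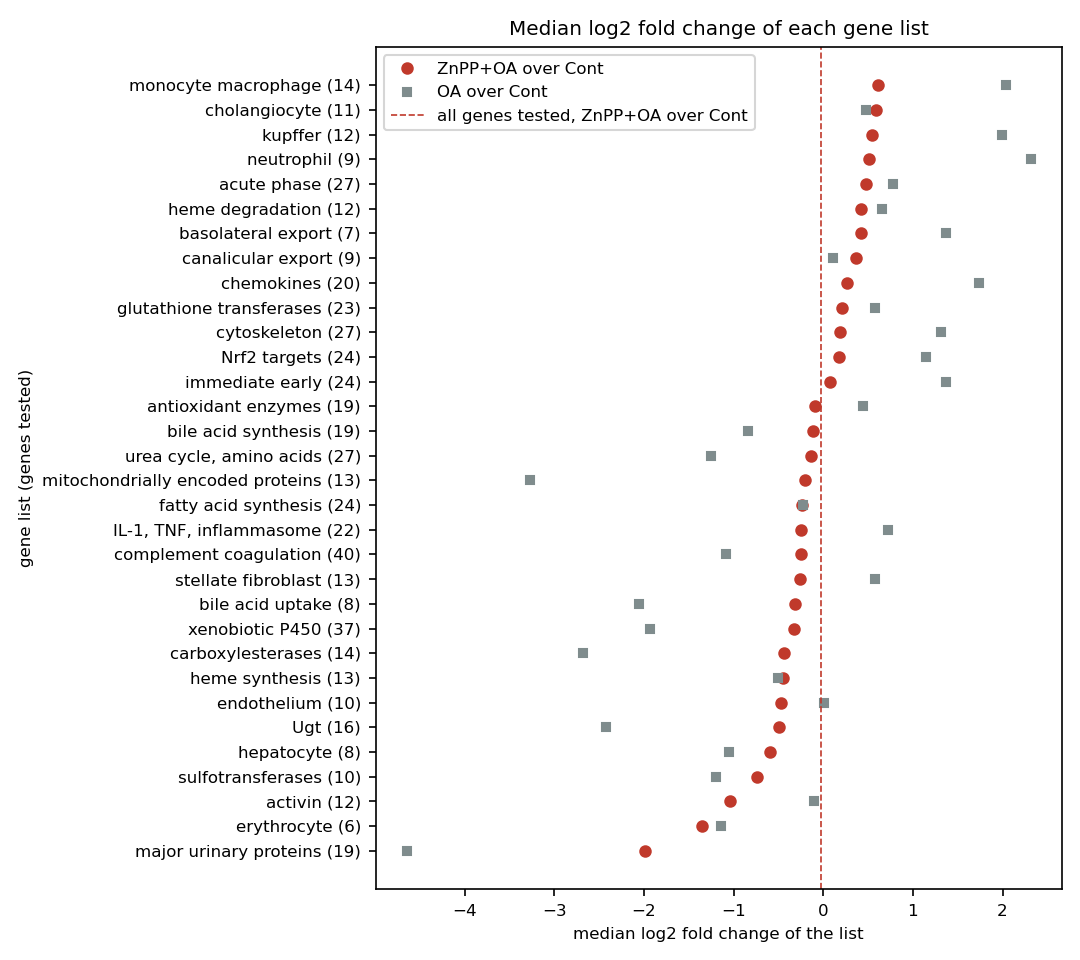
Median fitted log2 fold change of a selection of gene lists (number of genes tested in brackets) for ZnPP+OA over Cont (circles) and OA over Cont (squares). The dashed line is the median of all genes for ZnPP+OA over Cont (−0.02). Some lists, among them lymphocyte, pancreas and muscle markers and mitochondrial rRNA, are not drawn. Of the lists plotted, major urinary proteins have the lowest circle (−1.98) and the lowest square (−4.64), and the circles plotted lie between −1.98 and 0.61.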

How the data were processed

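Liver mRNA of 9 mice in 3 groups was sequenced as poly(A)-selected, strand-marked paired-end libraries. Per the labels, the authors trimmed reads with cutadapt 1.9, aligned them to mm10 with HISAT2 2.2.1 and assembled transcripts with StringTie 2.1.6, and they also list DESeq2 and edgeR. The authors deposited 1 table with raw read counts and FPKM values per gene and library. Which tool made the counts is not given in the sources used. The deposited counts were used for all main values, and the FPKM values made by the authors, which are scaled by gene length and library total, were used only for alternatives. The table also holds fold changes and p-values of the authors' own comparisons, which were not used.

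Of 36119 genes, 32309 had a count and 18895 passed filterByExpr of edgeR 4.0.16 (min.count 10, min.total.count 15). All 3 groups entered 1 quasi-likelihood fit with TMM scaling in R 4.3.3, and p-values were adjusted by Benjamini-Hochberg over all genes tested, with a threshold of 0.05. Groups came from the sample labels. Alternatives were DESeq2 1.42.0 on the same genes, limma 3.58.1 (voom with sample weights, and log2(FPKM + 1) or log2(FPKM + 0.1) with at least 1 FPKM in 3 libraries), other scaling and filters, a replicate block and each library left out in turn. The test code was checked on simulated data. Total counts per library were 32639438 to 85060187, and counting error is small beside the spread between mice for genes with many counts. It need not be small for genes with few counts in some livers, such as Fosb, Il1r2 and Taf9.

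Genes were named by rule, first among protein-coding genes with an unadjusted p under 0.05 (edgeR), no overlap between the livers and a mean of at least 5 CPM in 1 of the groups. Of these, the 12 largest fold changes and the 6 lowest DESeq2 adjusted p in each direction were taken. For genes taken this way, the lack of overlap was a condition of the choice. Genes the study names, and up to 4 genes of each list by p, were added. The genes and lists were chosen with earlier results of these data known. Promoter sequences came from RefSeq (GRCm38.p6), and all genes shown were matched by symbol.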

Additional observations from a re-analysis of the deposited data

How the results depend on the processing

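Counts of calls depended on the processing more than directions did. edgeR called 0 genes in the main fit, 6 with library totals alone (all lower), 135 with no filter, and 1 with Cont 1 and Cont 2 left out, an alternative chosen after seeing the data. DESeq2 called 140, limma called 2 on log2(FPKM + 1) and 5 on log2(FPKM + 0.1), and 0 were called with RLE scaling, without mitochondrially encoded genes, with at least 10 counts in every library, by voom, or with the 6 libraries alone. Leaving out 1 library gave 0 to 4 calls, and the 4 came without Cont 3. Leaving out mitochondrially encoded and erythrocyte marker genes together, also chosen after seeing the data, gave 0. Genes higher at an unadjusted p under 0.05 numbered 321 with library totals, 1219 with no filter, 421 with at least 10 counts in every library, 296 with the 6 libraries alone, and 69, 159 and 192 on the FPKM scale (pseudocounts 1, 0.1, and 1 with no filter). Genes lower at an unadjusted p under 0.05 numbered 1508 with no filter, 537 by voom, 441 with the 6 libraries alone, and 186, 140 and 323 on the FPKM scale. With 1 library left out these counts ran between 583 and 2085 (higher) and between 705 and 1281 (lower), with both maxima without Cont 3.

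Genes with all ZnPP+OA livers above all Cont livers numbered 238 with library totals, 684 with at least 10 counts in every library, 55, 55 and 339 on the FPKM scale, 1103 to 3208 with 1 library left out and 3725 without Cont 1 and Cont 2. Genes with all ZnPP+OA livers below numbered 393 with library totals, 93, 93 and 521 on the FPKM scale, 891 to 2404 with 1 library left out and 5809 without Cont 1 and Cont 2. Fewer libraries leave fewer values to overlap. Library totals alone moved the median of all genes by −0.36, and with them 0 erythrocyte and 0 cholangiocyte markers passed an unadjusted p under 0.05.

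Some log2 fold changes crossed 0. Log2 fold changes in this paragraph are shifted so that the median of all genes equals that of the main fit. Gclc was 0.10 with library totals, Nqo1 was 0.76 by voom and 0.088 on log2(FPKM + 0.1), and Abcc4 was 0.029 on log2(FPKM + 1). Before the shift, the median of all genes differed from the main fit by −0.36 with library totals and by −0.073 on log2(FPKM + 1). Both differences are larger in size than the values of Gclc and Abcc4 there, so those signs rest on the shift. With 1 library left out, Abcc4 ran from −0.87 to 0.29, Nqo1 from −0.74 to 1.34, Gclc from −0.33 to 0.10 and Sod2 from −0.64 to 0.16. Without Cont 1 and Cont 2 the values were 0.40 for Alb, 0.028 for Sult2a8, −0.34 for Abcc2, −0.74 for Abcc3, 0.53 for Abcc4, 1.54 for Nqo1, 0.33 for Gclc and 0.12 for Sod2. The cause of these changes was not tested. With the replicate number as a block, 0 genes were called, 487 were lower at an unadjusted p under 0.05, and Nqo1 was 0.062. The labels do not say that the numbers pair the samples, so the main fit did not pair them. The deviations of same-numbered ZnPP+OA and Cont livers correlated at −0.0658, 0.014 and −0.101. With 3 livers a group, these values cannot decide whether same-numbered mice shared a day or litter. With 3 livers a group and Cont livers that differ from each other, a gene that does not pass the test is not shown to be equal in both groups.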

Other observations

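Col5a3, which encodes a collagen V chain and was chosen after its values were seen, had 183, 228 and 160.3 CPM in ZnPP+OA livers, 39.6, 9.03 and 7.53 CPM in OA livers and 24.9, 66.4 and 71.9 CPM in Cont livers. Its ZnPP+OA livers lay above both other groups, with log2 fold changes of 1.81 ± 0.59 (SE) against Cont and 3.35 against OA (edgeR adjusted p = 0.0166). Apoa2, an apolipoprotein of high-density lipoprotein, had 790.0, 935 and 814 CPM in ZnPP+OA and 1807, 1152 and 1710.3 CPM in Cont livers, with no overlap. Ghr, the growth hormone receptor, had 32.2, 58.3 and 41.3 CPM in ZnPP+OA, 12.7, 14.5 and 15.2 CPM in OA and 123, 78.2 and 56.5 CPM in Cont livers, and ZnPP+OA and Cont livers overlapped at 1 liver each. Cyp2c40, another Cyp2c gene, had 2.08, 3.28 and 2.38 CPM in ZnPP+OA and 12.9, 9.27 and 3.78 CPM in Cont livers. The chemokine gene Cxcl10 had 1.66, 0.212 and 3.801 CPM in ZnPP+OA and 0.423, 0.793 and 0.257 CPM in Cont livers, with ZnPP+OA 2 below the Cont livers.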
